A study of Rattus norvegicus with 53 samples.

Results

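Gpx3 and Tnip1 are adjacent genes on rat chromosome 10, and they are 2 of the 32576 genes measured in whole eyes of HS rats. Both rows were identified by their start position on Rnor_6.0. Gpx3 (ENSRNOG00000052564) starts at base 40247436 of chromosome 10 on the plus strand and Tnip1 (ENSRNOG00000010370) at base 40296470 on the minus strand, 49034 bases away, so that the genes face each other tail to tail. No other measured gene starts between them. The pair was chosen by how closely their levels followed each other across these same eyes, so their correlation is given below as a description, with no test.

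Gpx3 encodes the plasma glutathione peroxidase, a secreted enzyme with selenocysteine in its active site that reduces hydrogen peroxide and lipid hydroperoxides with glutathione as the electron donor. In the bovine eye its transcript is known from the epithelium of the ciliary body, which makes the aqueous humor. Tnip1 encodes a cytoplasmic protein, also called ABIN1, that binds ubiquitin chains and the ubiquitin-editing enzyme A20 and restrains NF-kB signalling downstream of tumor necrosis factor and Toll-like receptors.

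Each library was made from the polyA RNA of 1 whole eye of a different Heterogeneous Stock (HS) rat, an outbred population derived from 8 inbred strains. The eyes had their extraocular muscles removed, and 51 of the 53 samples were analysed, the other 2 having been dropped by the authors because they fitted no DNA genotype. The design has no treated and control group: every eye belongs to a single group, some rats had self-administered nicotine, and which ones, like the sex and age of each rat, is not given in the sample labels. The eyes were therefore compared only by 2 technical labels, the 11 eyes whose label had been corrected after genotype matching against the 40 that kept theirs, and the 12 eyes whose rat tag has a less common prefix against the 39 with the most common one.

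With the log2 undone, the libraries held from 9109084 to 42146827 estimated fragments, around a median of 16193478, and 3 libraries were well above the rest with at least 34999539. The share of counts on mitochondrial genes ran from 0.418% to 8.91%, with a median of 3.15%. Levels are given below as CPM, the counts of an eye scaled to a total of 1000000, and relations between genes were computed on log2(CPM + 1). Gene names could be given only to 778 of the measured genes. These are on the study's list of genes with a cis-eQTL, a nearby genetic locus associated with their level in these eyes. Gpx3 and Tnip1 are among them, and the other genes are given by identifier or not named.

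The promoters of both genes are shown because the genes start far apart on opposite strands and share no start region. They run from 250 bases before to 50 bases after the start given by RefSeq on GRCr8, a later build than that of the measurements, and capitals mark matches to the motifs searched. The Gpx3 window lies at chr10:39529085-39529384 on the plus strand and the Tnip1 window at chr10:39584912-39585211 on the minus strand, each read 5′ to 3′ along its gene.
Gpx3: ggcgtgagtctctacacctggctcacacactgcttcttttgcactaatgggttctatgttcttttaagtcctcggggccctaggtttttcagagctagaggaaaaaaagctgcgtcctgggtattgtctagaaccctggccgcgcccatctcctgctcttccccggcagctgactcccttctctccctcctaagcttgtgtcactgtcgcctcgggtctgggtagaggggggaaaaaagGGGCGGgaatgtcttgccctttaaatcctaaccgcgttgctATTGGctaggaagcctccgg
Tnip1: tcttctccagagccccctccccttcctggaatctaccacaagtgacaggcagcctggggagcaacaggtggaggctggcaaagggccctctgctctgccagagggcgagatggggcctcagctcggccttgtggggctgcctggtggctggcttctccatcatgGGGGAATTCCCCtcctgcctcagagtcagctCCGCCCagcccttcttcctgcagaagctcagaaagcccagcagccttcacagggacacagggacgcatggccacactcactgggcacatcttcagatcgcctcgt
The Gpx3 window had a GC content of 54.7% and the Tnip1 window 62.7%. In Gpx3 the capitals mark a GC box (GGGCGG) and, on the other strand, a CCAAT box (CCAAT, here read as ATTGG). In Tnip1 they mark a stretch holding 3 overlapping matches to the NF-kB consensus over both strands, and a GC box on the other strand, here read as CCGCCC. Of 33469 rat promoter windows of this length, 33.1% held a GC box, 37.5% a CCAAT box and 7.51% an NF-kB consensus match on either strand. Neither window held the core of the antioxidant response element (TGACNNNGC, in 12.1% of windows) or the letters TATAAA (in 14.2%), the Gpx3 window held no NF-kB consensus match and the Tnip1 window no CCAAT box. These are matches of letters and not measured binding sites. In the same RefSeq annotation 0 genes lie between the pair, their transcribed parts do not overlap, and the flanking genes are Hint1 on the Gpx3 side and Anxa6 on the Tnip1 side.

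Gpx3 was measured in every eye. Its level ran from 29.1 to 92.7 CPM with a median of 53.5 CPM, quartiles of 43.5 and 65.6 CPM and a mean of 55.7 ± 17.6 CPM (SD, n = 51). The next lowest eye had 29.3 CPM and the next highest 91.6 CPM, so neither end of this 3.19-fold range was set by a lone eye. The estimated counts behind these values ran from 459 to 2423 fragments, with a median of 828, and in 51 of 51 eyes they equalled a whole number within the rounding of the file. Its log2 level had an SD of 0.46, more than 86.5% of the 200 genes of most similar level.

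Tnip1 was also measured in every eye, at 66.4 to 169 CPM with a median of 108 CPM, quartiles of 87.8 and 122 CPM and a mean of 106 ± 23.2 CPM (SD, n = 51). The next lowest eye had 66.7 CPM and the next highest 147 CPM, so the top of this 2.55-fold range was set by 1 eye. Its counts ran from 920 to 4868 fragments, with a median of 1649, and were also whole numbers in 51 of 51 eyes. The SD of its log2 level was 0.32, more than 62.5% of its own 200 genes of most similar level. The coefficient of variation was 31.6% for Gpx3 and 21.9% for Tnip1. In a bulk sample of a whole eye, fewer cells of a type and less RNA per cell cannot be told apart.

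Some eyes were low in both genes, while several eyes at the top of one gene were not high in the other. Eye 20 had the lowest Gpx3 level, 29.1 CPM, with Tnip1 at 80.7 CPM. Eye 5 had the lowest Tnip1 level, 66.4 CPM, with Gpx3 at 35.6 CPM. All 4 values were under the lower quartile of their gene, and both eyes have a corrected label. Eye 7 had the highest Tnip1 level, 169 CPM, and its Gpx3 level of 53.5 CPM was the median. Eye 37, with the next highest Tnip1 level of 147 CPM, had only 30.6 CPM of Gpx3, and eye 3, highest in Gpx3 with 92.7 CPM, had 96.9 CPM of Tnip1, under the median.

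Both genes averaged lower levels in the 11 eyes with a corrected label, and neither difference passed the adjusted test. Gpx3 averaged 47.3 ± 17.7 CPM in the eyes with a corrected label and 58.0 ± 17.1 CPM in those with a kept label (SD, n = 11 and 40), a difference of -0.31 on the log2 scale (two-sided permutation test, p = 0.0450, adjusted p = 0.827 by Benjamini-Hochberg over 13844 genes). Tnip1 averaged 91.9 ± 22.8 CPM and 110 ± 22 CPM in the same groups, a difference of -0.27 (permutation p = 0.0103, adjusted p = 0.827). The ranges overlapped in part. Gpx3 ran from 29.1 to 81.7 CPM in eyes with a corrected label and from 29.9 to 92.7 CPM in the others, with 2 corrected-label eyes under every kept one and 5 kept ones above every corrected-label eye. Tnip1 ran from 66.4 to 126 CPM and from 74.1 to 169 CPM in the same groups, with 3 corrected-label eyes under and 9 kept ones above the range of the other group. In this comparison 0% of the 13844 genes passed an adjusted p of 0.05 and 809 had an unadjusted p under 0.05, with a smallest adjusted p of 0.277.

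**Figure D1:**
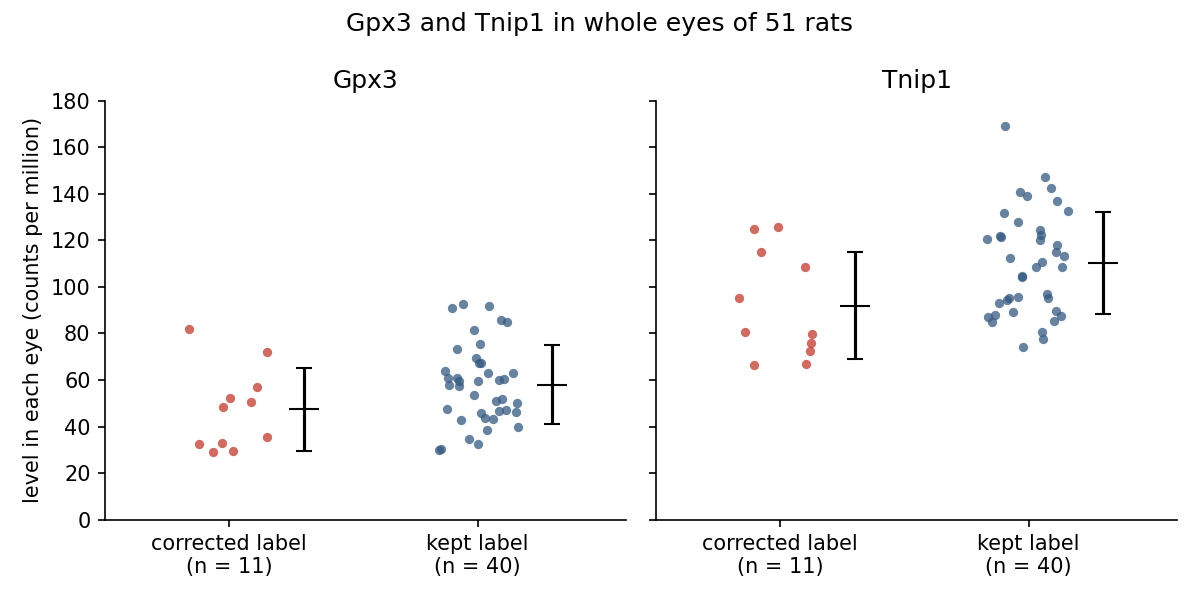
Level of Gpx3 (left) and Tnip1 (right) in each of the 51 eyes in CPM, for the 11 eyes with a corrected label and the 40 with a kept label. Points are eyes and black bars are the mean with 1 SD. The 2 groups overlap in part for both genes, with Gpx3 at 47.3 CPM and 58.0 CPM on average and Tnip1 at 91.9 CPM and 110 CPM.

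Between the tag prefixes neither gene passed the test, as 0.0867% of 13844 genes did. Gpx3 averaged 53.1 ± 18.3 CPM in the 12 eyes with other prefixes and 56.6 ± 17.5 CPM in the 39 with the most common one (log2 difference -0.10, permutation p = 0.531, adjusted p = 0.823). Tnip1 averaged 100 ± 29.6 CPM and 108 ± 21.1 CPM (log2 difference -0.13, permutation p = 0.220, adjusted p = 0.597). No relation to sequencing depth was detected for either gene. Pearson's r with the log2 total count was 0.05 for Gpx3 (permutation p = 0.706, Spearman's rho 0.08) and -0.01 for Tnip1 (p = 0.943, rho 0.01), each with an adjusted p of 0.999. For depth 0% of genes passed the permutation test and 295 had an unadjusted p under 0.05. With the mitochondrial share, r was -0.16 for Gpx3 (permutation p = 0.275, adjusted p = 0.409, rho -0.14) and -0.00 for Tnip1 (p = 0.992, adjusted p = 0.995, rho -0.01), while 30.9% of genes passed.

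Over the 51 eyes the levels of Gpx3 and Tnip1 were weakly related, with Pearson's r = 0.27 (jackknife SE 0.14) and Spearman's rho = 0.27. Leaving out the 2 eyes most distant from the median level of Gpx3 gave 0.29, and it was 0.23 to 0.35 when each eye was left out in turn. It was 0.35 in the 12 eyes with other tag prefixes and 0.23 in the 39 with the most common one, and 0.44 in the 11 eyes with a corrected label and 0.10 in the 40 that kept theirs. In 29 of the 51 eyes both genes lay on the same side of their means. Of the 10 eyes highest in Gpx3, 2 were among the 10 highest in Tnip1, and of the 10 lowest in Gpx3, 5 were among the 10 lowest in Tnip1 and 2 among the 10 highest.

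Much of the variation of expression across these eyes is shared by many genes. Principal components, the main axes of this shared variation, were computed over the genes above 0 in any eye, and removing 20 of them, the number in the study's model of expression, took away 71.8% of the variance over all genes. It took away 75.4% of the variance of Gpx3 and 62.7% of that of Tnip1, against 81.2% for the median tested gene. What remained had an SD of 0.23 for Gpx3 and 0.19 for Tnip1 in log2 units, more than in 97.5% and 94.5% of those 200 genes. The residual ran from -0.46 to 0.71 for Gpx3 and from -0.47 to 0.39 for Tnip1.

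After the 20 components were removed, the relation between Gpx3 and Tnip1 was stronger, with r = 0.67 (jackknife SE 0.13) and rho = 0.62. It was 0.62 without the 2 eyes most distant from the median level of Gpx3, and 0.63 to 0.73 when each eye was left out. The components were computed again in both cases. Of the 10 eyes highest in residual Gpx3, 5 were among the 10 highest in residual Tnip1, and of the 10 lowest, 8 were among the 10 lowest, while 0 eyes were among the 10 highest in one and the 10 lowest in the other. The genes lay on the same side of 0 in 33 eyes. Per log2 unit of residual Tnip1, residual Gpx3 was 0.79 log2 units higher, against a slope of 0.40 before removal.

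Eye 18 shows a shared high, with residuals of 0.51 for Gpx3 and 0.39 for Tnip1. Eye 36 shows a shared low, with -0.32 and -0.47, and both eyes have a corrected label. Of the eyes with a kept label, eye 43 had -0.39 and -0.37, and eye 10 had 0.34 and 0.31. The 2 genes parted in eye 37, which had -0.14 for Gpx3 and 0.38 for Tnip1. Eye 30 had the highest residual of Gpx3, 0.71, with 0.23 for Tnip1.

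**Figure D2:**
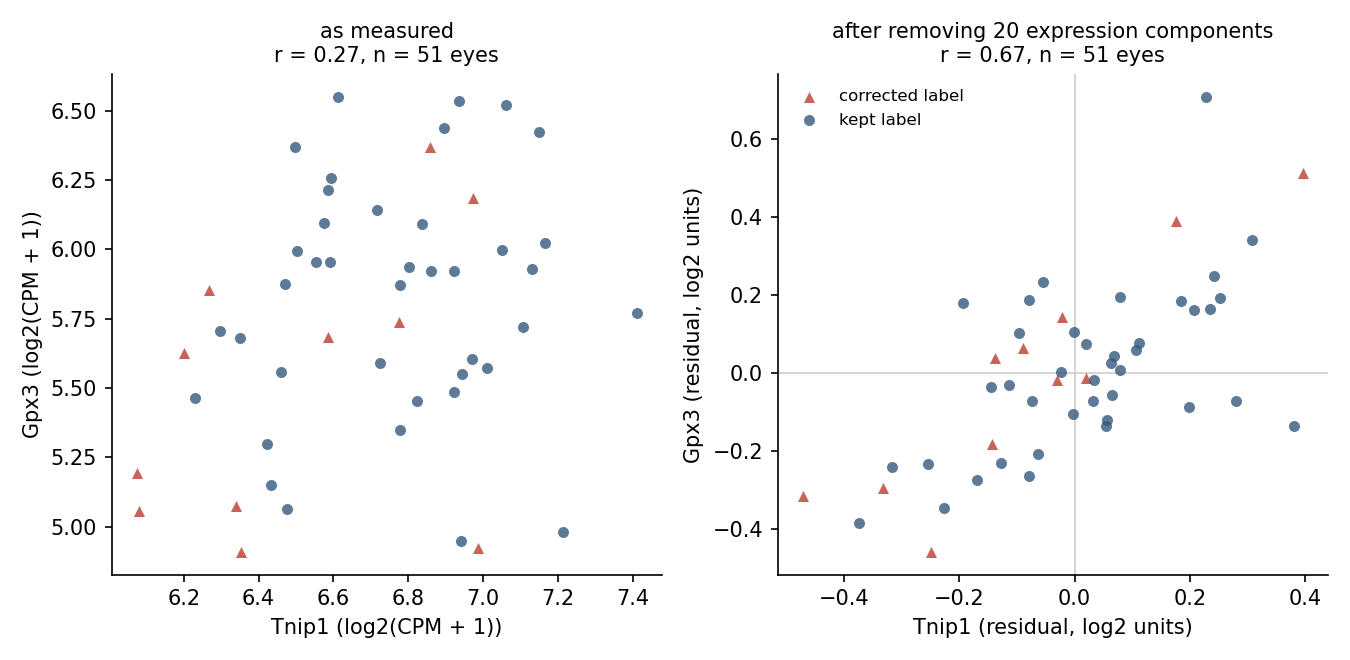
Gpx3 (vertical) against Tnip1 (horizontal) in 51 eyes, as log2(CPM + 1) on the left and as residuals in log2 units after removing 20 expression components on the right. Triangles are the 11 eyes with a corrected label and circles the 40 with a kept label. The points scatter widely on the left (r = 0.27) and follow a rising line on the right (r = 0.67).

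The relation after removal held within both technical splits, at different sizes. It was 0.56 in the eyes with other tag prefixes and 0.69 in those with the most common one. It was 0.91 in the 11 eyes with a corrected label and 0.57 in the 40 with a kept label, and 0.43 when the components were computed from those 40 eyes alone. The difference between these values was not tested. The residuals themselves averaged 0.02 log2 units lower for Gpx3 and 0.10 lower for Tnip1 in the eyes with a corrected label.

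The covariance of the pair can be divided into the part on the 20 components and the rest. On the components the fitted values of the 2 genes had r = 0.10 and a covariance of 0.0103, while the residuals had a covariance of 0.0292, out of 0.0395 in all. The component holding most of a gene's variance was the third for Tnip1 and the second for Gpx3. Tnip1 had r = 0.57 with the third component, which held 33.1% of its variance and 2.23% of that of Gpx3. Gpx3 had r = 0.39 with the seventh component, which held 15.4% of its variance and 0.130% of that of Tnip1, and r = -0.30 with component 16. On the second component r was -0.43 for Gpx3 and -0.25 for Tnip1, with 18.6% and 6.45% of their variance, and this component had r = 0.51 with the mitochondrial share. Both had positive values on component 9, 0.31 for Gpx3 and 0.19 for Tnip1. They had opposite signs on the first component (-0.10 for Gpx3 and 0.26 for Tnip1) and on the third (-0.15 for Gpx3). The components were computed from these same eyes, so these values are a description.

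**Figure D3:**
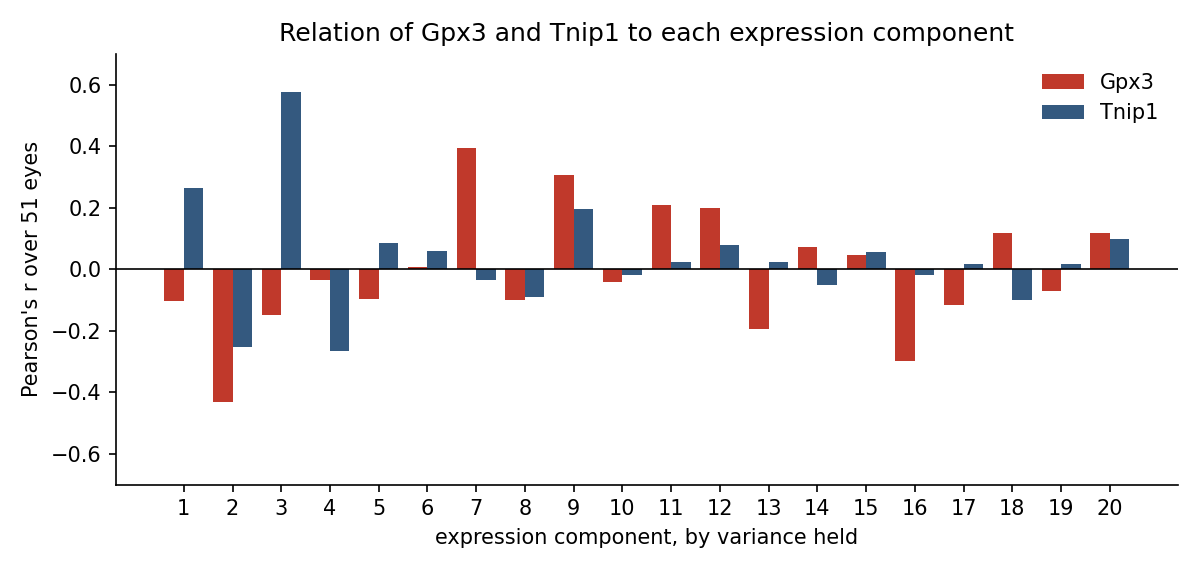
Pearson's r over 51 eyes of Gpx3 and Tnip1 (bars) with each of the 20 expression components, which are ordered by the variance they hold. The tallest bars are at components 2 and 7 for Gpx3 and 3 for Tnip1, and both genes share a sign on components 2 and 9 among others.

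The relation was higher with many components removed than with few, but it did not rise at every step. It was 0.31 with 1 component removed, 0.23 with 2, 0.43 with 3, 0.46 with 5, 0.55 with 7, 0.48 with 10, 0.53 with 15, 0.67 with 18 and 0.65 with 25. With 5 components, 22.9% of the variance of Gpx3 and 54.3% of that of Tnip1 had been removed. The other adjacent genes of the rat genome, 8618 pairs with starts within 100 kb, went the other way. Their median r was 0.16 before removal, when the 5th to 95th percentile ran from -0.34 to 0.66 and 34.9% of pairs had an r at least as high as Gpx3 and Tnip1. After 20 components the median was 0.02, the range was -0.31 to 0.37 and 0.522% of pairs, 45 in number, had an r at least as high. As the pair was chosen for its relation, this places it among other pairs and is not a test.

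**Figure D4:**
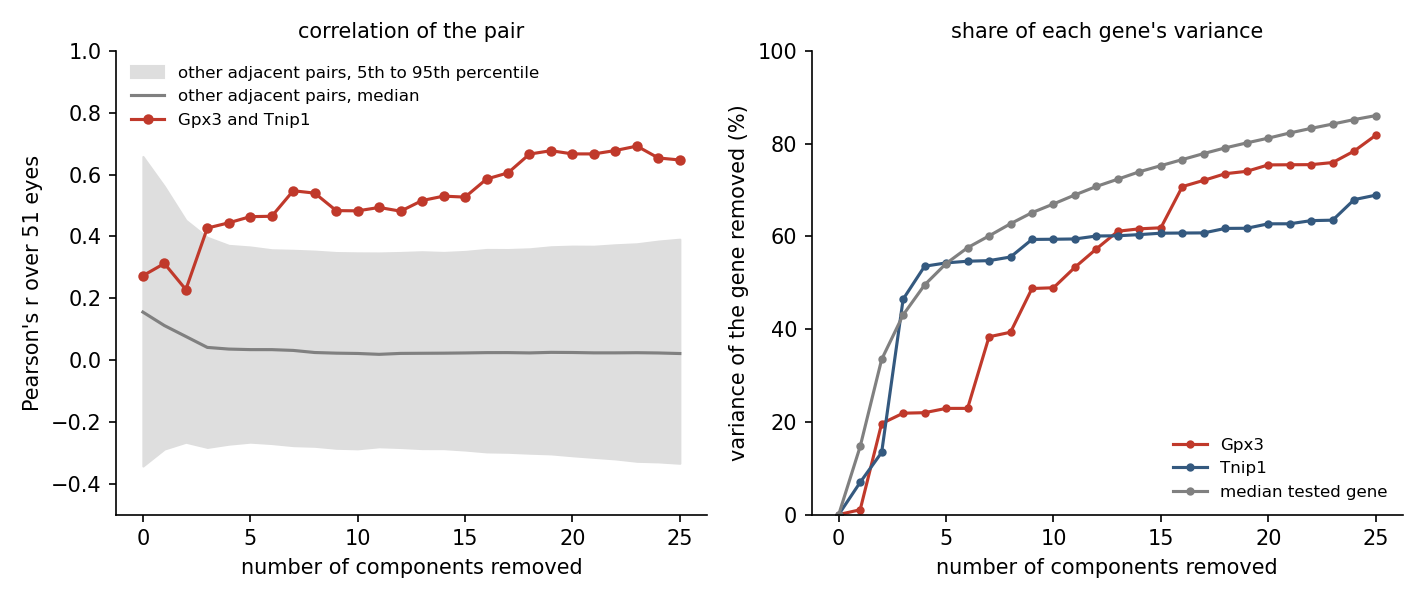
Left, Pearson's r of Gpx3 and Tnip1 over 51 eyes (red) against the number of components removed. The grey line is the median and the band the 5th to 95th percentile of 8618 other pairs of consecutive tested genes. Right, the percentage of the variance of Gpx3, Tnip1 and the median tested gene that had been removed. The pair climbs from 0.27 to 0.67 at 20 components while the median of the other pairs falls from 0.16 to 0.02.

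Around the pair, 21 other genes start within 0.5 Mb, of which 5 were at 0 in every eye, 5 were under a median of 1 CPM and 11 were tested. Before removal the r of these 11 ran from -0.38 to 0.48 with Gpx3 and from -0.35 to 0.19 with Tnip1, and by the permutation test 0 passed for either gene, with 5 for Gpx3 and 1 for Tnip1 at an unadjusted p under 0.05, as were 19.3% and 28.7% of all tested genes. After removal it ran from -0.32 to 0.65 with Gpx3 and from -0.57 to 0.58 with Tnip1. By the partial correlation 0 passed for either gene, with 1 and 3 at an unadjusted p under 0.05 (4.74% and 4.54% of all tested genes). The partner had a higher r than any of the 11, which is a description, as the pair was chosen for its relation.

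Of those 11 genes, 2 could be named, and their r with the pair had other values once the components were removed. AABR07029605.1 (start 39850818, plus strand), at 4.29 to 70.5 CPM with a median of 31.2 CPM, had r = -0.21 with Gpx3 and 0.03 with Tnip1 before removal, and 0.65 and 0.56 after (unadjusted p = 7.9e-05 and 0.0010, adjusted p = 0.545 and 0.946 over 13842 genes, partial correlation on 29 degrees of freedom). Anxa6 (start 40375605, minus strand), which encodes a calcium-dependent phospholipid-binding protein and is the neighbour of Tnip1 in RefSeq, was at 44.8 to 114 CPM. Its r was 0.03 with Gpx3 and -0.07 with Tnip1 before removal, and -0.32 and -0.57 after (adjusted p = 0.978 and 0.946). ENSRNOG00000042449, which starts at 40122915, had r = 0.58 with Tnip1 and 0.32 with Gpx3 after removal.

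After removal, genes of this stretch of chromosome 10 were also among those with the largest r, of either sign, genome-wide. None of these relations passed the adjusted test. Of the 20 genes with the largest r in either direction after removal, 5 for Gpx3 and 6 for Tnip1 start on chromosome 10, which holds 8.39% of the tested genes, and 2 and 4 start within 2 Mb of the member, a stretch that holds 28 tested genes or 0.202%. Before removal the counts on chromosome 10 were 3 and 0, and 0 of the 20 lay within 2 Mb for either gene. These counts are a description and were not tested.

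Each gene was then compared with the 13842 other genes that had a median of at least 1 CPM, by a two-sided permutation test of r over the 51 eyes with Benjamini-Hochberg adjustment. Gpx3 was related to few. With it 58 genes had a positive r that passed an adjusted p of 0.05 (0.419%) and 26 a negative one (0.188%), with a smallest adjusted p of 0.0231, and 2669 had an unadjusted p under 0.05. Tnip1 was related to many, 1486 positively (10.7%) and 296 negatively (2.14%), with a smallest adjusted p of 0.00152, and 3973 had an unadjusted p under 0.05. Without the 2 eyes most distant from the median of Gpx3 its count was 25 in place of 84, and in the 40 eyes with a kept label the counts were 11 for Gpx3 and 605 for Tnip1. Both counts also depended on the scaling of the eyes. With median-of-ratios scaling Gpx3 had 466 positive and 322 negative relations, and Tnip1 288 positive and 391 negative, so that the majority sign turned for Tnip1. The positive relations were 83.4% of those of Tnip1 by total count and 42.4% by median of ratios, and 69% and 59.1% of those of Gpx3. All 84 genes found for Gpx3 by total count were among its 788 by median of ratios, and 459 of the 1782 for Tnip1 were among its 679.

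Of the called genes, 6 were called for both with the same sign. They are 7.14% of those of Gpx3, where 12.9% of all tested genes were called for Tnip1, and 0.337% of those of Tnip1, where 0.607% of all tested genes were called for Gpx3. Before removal 1194 genes had a higher r with Gpx3 than Tnip1 had, and 3134 had a higher r with Tnip1 than Gpx3 had. After removal 0 of 13842 had a higher r with either, the next highest being 0.666 with Gpx3 (against 0.667 for the pair) and 0.601 with Tnip1. As the pair was chosen for its relation, this rank is a description and not a test.

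After removal no relation with another gene passed the test, and the pair itself was not put to it. An r of 0.666 with Gpx3, against 0.667 for the pair, did not pass. By the partial correlation on 29 degrees of freedom 0% of genes passed for Gpx3 and 0% for Tnip1, with smallest adjusted p-values of 0.545 and 0.946, while 656 and 629 had an unadjusted p under 0.05, 4.74% and 4.54% of those tested. A permutation of the residuals, which treats the 51 eyes as free values, called 23 and 62.

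**Figure D5:**
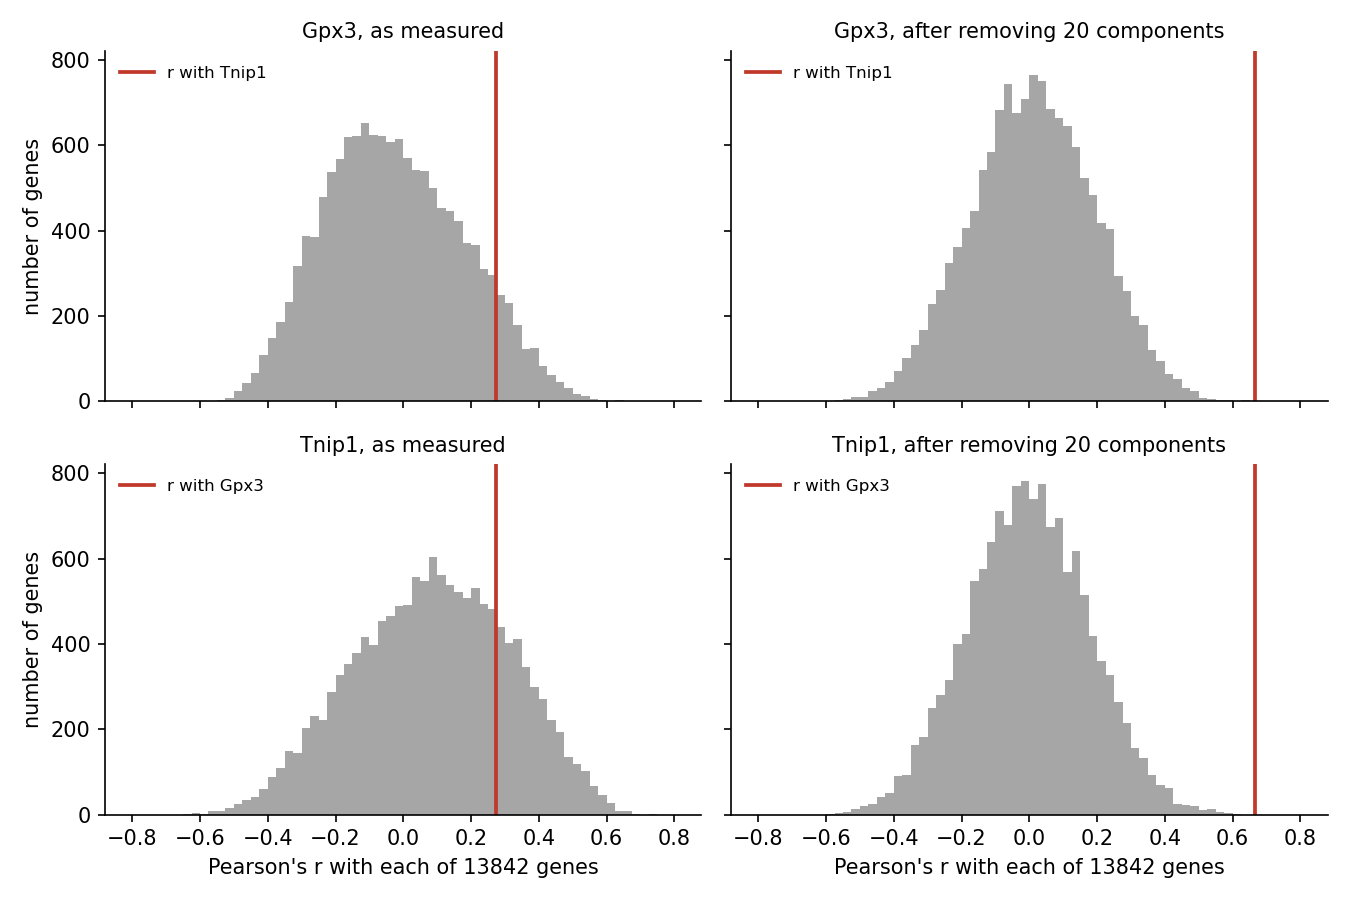
Distribution of Pearson's r of Gpx3 (top) and Tnip1 (bottom) with 13842 other genes over 51 eyes, as measured (left) and after removing 20 components (right). The vertical line is the r of the pair, which 1194 and 3134 genes exceed on the left and 0 on the right. The pair was chosen for its relation, so its place is a description.

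Among the genes that could be named, 5 of 698 were called for Gpx3 and 79 for Tnip1, where 0.607% and 12.9% of all tested genes were. Of the named genes, those with the largest r with Gpx3 were Atp5mc2, a subunit of the membrane ring of mitochondrial ATP synthase, and Adrm1, a ubiquitin receptor of the proteasome. Atp5mc2 ran from 53.9 to 165 CPM and had r = 0.53 (adjusted p = 0.0328) and rho = 0.58 (p = 1e-05, the smallest that 100000 permutations can give), 0.53 without 2 eyes, 0.63 in eyes with other tag prefixes and 0.54 in those with the most common one. After removal its r was 0.17. Adrm1 had r = 0.53 (adjusted p = 0.0328) and rho = 0.52, and Il11ra1, the interleukin-11 receptor chain, 0.49 (adjusted p = 0.0474). Clu, the secreted chaperone clusterin, had r = 0.48 and did not pass (adjusted p = 0.0513), nor did Slc66a2 (0.48, adjusted p = 0.0512).

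Over all 13842 genes the r with Gpx3 ran from -0.64 to 0.63. On the negative side, the named genes related to Gpx3 by the permutation test were Cep128 and Sema3e. Cep128, a centriole protein, had r = -0.51 (adjusted p = 0.0384), and Sema3e, a secreted guidance cue, had -0.49 (adjusted p = 0.0474). Vps8, Parg and Chrnb3, which encodes a nicotinic acetylcholine receptor subunit, had r = -0.47, -0.46 and -0.46 and adjusted p-values of 0.0546, 0.0569 and 0.0523. With median-of-ratios scaling all 10 of these genes passed, at adjusted p-values from 0.00839 for Atp5mc2 and Adrm1 to 0.0438 for Parg. In the 40 eyes with a kept label none of the 10 did, with adjusted p-values from 0.0723 to 0.180, nor in the 39 with the most common prefix, from 0.102 to 0.209.

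Among the genes that could be named, Tnip1 had its largest r with Tnfrsf21, a death receptor of the tumor necrosis factor receptor family. Tnfrsf21 ran from 49.3 to 131 CPM and had r = 0.68 (adjusted p = 0.00152) and rho = 0.65 with Tnip1, 0.66 without 2 eyes, 0.90 in eyes with other tag prefixes and 0.53 in those with the most common one. Over all 13842 genes the largest r with Tnip1 was 0.73. Tnfrsf21 kept r = 0.57 after removal (unadjusted p = 0.00085, adjusted p = 0.946), and its r with Gpx3 was 0.05 before and 0.25 after. Psd4, an exchange factor for Arf GTPases, followed with r = 0.60, the GTPase Rhob with 0.58, the pseudokinase Nrbp1 with 0.58 and Lrrfip1 with 0.57, at adjusted p-values of 0.00152 to 0.00199. These 5 also passed with median-of-ratios scaling (adjusted p from 0.00923 to 0.0229), while Rhob did not in the 40 eyes with a kept label (0.0573) and none did in the 39 eyes with the most common prefix (adjusted p from 0.138 to 0.220).

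Of the genes that could be named, those most negatively related to Tnip1 by the permutation test began with Sh3bgr (r = -0.51, adjusted p = 0.00421). Sfrp1, a secreted antagonist of Wnt signalling, had -0.44 (adjusted p = 0.0164). Rap1gds1 (-0.43, adjusted p = 0.0230), Lyrm1 (-0.41, adjusted p = 0.0317) and the RNA-binding protein gene Hnrnpa3 (-0.39, adjusted p = 0.0388) followed. Over all 13842 genes the most negative r with Tnip1 was -0.65. By median of ratios Sh3bgr, Sfrp1 and Lyrm1 no longer passed (adjusted p = 0.111, 0.113 and 0.107), and Rap1gds1 and Hnrnpa3 did (0.00923 and 0.0353). Only Sh3bgr of these 5 passed by Spearman's rho (adjusted p = 0.0173, the others 0.0738 to 0.207) and in the 40 eyes with a kept label (0.0308, the others 0.0756 to 0.175), and none did in the 39 eyes with the most common prefix (0.143 to 0.291). Sh3bgr, Sfrp1 and Lyrm1 had r = 0.22, 0.20 and 0.22 with Gpx3, of the other sign, and Rap1gds1 had -0.40, none of them passing the test (adjusted p from 0.0941 to 0.445).

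After removal, the named genes with the largest r were AABR07029605.1, Gpbp1 (0.47), Kif15 (0.45), Bphl (0.43) and Tspan9 (0.43) for Gpx3, and Tnfrsf21, AABR07029605.1, Flywch1 (0.45), Brk1 (0.44) and Plet1 (0.43) for Tnip1. The most negative were Wwc2 (-0.56), Borcs5 (-0.54), Pex13 (-0.52), Fads2l1 (-0.51) and Gramd1b (-0.48) for Gpx3, and Anxa6, Enpp6 (-0.52), Col9a1 (-0.51), Islr (-0.50) and Wwc2 (-0.48) for Tnip1. None passed the adjusted test, with adjusted p-values from 0.545 to 0.999. AABR07029605.1 and Wwc2 stood in the lists of both genes.

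Few genes of the pathways in which Gpx3 and Tnip1 act could be named in these data. Of 24 genes of selenium and glutathione metabolism 2 were named and tested. Gclc, the catalytic subunit of the enzyme that begins glutathione synthesis, had r = 0.11 with Gpx3 (adjusted p = 0.706) and -0.31 with Tnip1 (unadjusted p = 0.0253, adjusted p = 0.114). Lrp2, a receptor that takes up selenoprotein P, had r = 0.02 and -0.06. The 16 other antioxidant enzymes, the 27 genes of the NF-kB pathway and Tnip1 partners and the 10 NF-kB target genes were not analysed here, as 0 of them could be named, and so Tnip1 could not be set beside the targets of the pathway it restrains.

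Of the markers of the tissues in a whole eye, 5 could be named. Glul, the glutamine synthetase of Müller glia, was at a median of 2895 CPM. The medians of the other markers were 2.82 CPM for the stromal gene Lum, 16.8 CPM for beta-globin (Hbb), 2.24 CPM for the myeloid gene Cd68 and 0 CPM for the gland gene Lpo. Lpo was not tested because of its low level. Before removal none of the others was related to either gene at an adjusted p under 0.05. For Glul, Lum, Hbb and Cd68 in this order, r was 0.10, -0.10, -0.23 and -0.07 with Gpx3. With Tnip1 it was 0.26, -0.07, 0.04 and 0.05. After removal the macrophage marker Cd68 had r = -0.32 with Gpx3 and -0.47 with Tnip1, and Hbb had -0.36 and -0.26 (adjusted p from 0.968 to 0.999). Glul had -0.17 with Gpx3 and 0.21 with Tnip1, and Lum 0.02 with both, which did not pass either. Markers of photoreceptors, lens, cornea, pigmented and ciliary epithelium and muscle were not analysed here, and the part of tissue composition in the relation of Gpx3 and Tnip1 was not tested.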

How the data were processed

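RNA of 53 HS rat eyes was sequenced as 150 bp paired-end reads on a NovaSeq. The authors aligned the reads to Rnor_6.0 with STAR in 2 passes, matched samples to DNA genotypes with GATK ASEReadCounter, and quantified genes with RSEM. Tool versions: not given in the sources used here, and likewise the annotation. The values they deposited are expected counts of fragments per gene plus 1 on the log2 scale, unscaled between eyes, as the values themselves show. RSEM divides fragments that fit several genes.

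The log2 was undone, counts were divided by the total of their eye and multiplied by 1000000, and log2(CPM + 1) was used, which narrows differences at low levels. Genes were named only where their start matched the study's list of 778 genes with expression loci. Promoters came from RefSeq on GRCr8, whose coordinates were not used for the measurements. Components were principal components of inverse normal values of 20190 genes. Relations were tested by 100000 permutations, or after removal by the partial correlation, and adjusted by Benjamini-Hochberg over all genes. Adjustment for the technical labels was planned over 4 tests and was made over all 13844 genes instead. The genes, lists and rules were chosen with earlier results of these data known. Named genes were Gpx3, Tnip1, the genes within 0.5 Mb, the 5 largest r of each sign per gene before and after removal, and listed genes. Alternatives in scaling, pseudocount, filter, measure, components and eyes were tried. The scripts were tested on simulated data. The tools were pandas 2.3.3, scipy 1.17.1 and numpy 2.4.6 under Python 3.11.15, with figures by matplotlib 3.10.9. Each eye is 1 rat, and p-values treat the rats as unrelated.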

Additional observations from a re-analysis of the deposited data

How the results depend on the processing

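The correlation of Gpx3 and Tnip1 kept its positive sign under every alternative run. Before removal it was 0.65 on the values as deposited, with no scaling for depth. It was 0.10 without the eyes with a corrected label, and 0.44 in those eyes alone. Leaving out each eye gave 0.23 to 0.35 before and 0.63 to 0.73 after removal. After removal it was 0.46 with 5 components, 0.48 with 10, 0.43 without the eyes with a corrected label and 0.91 in those alone, a setting chosen after seeing the data.

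The counts of related genes moved more. For Gpx3, 84 as reported, the count was 788 with median-of-ratios scaling, 10440 as deposited, 150 with the minimum median raised to 10 CPM, 38 over genes above 0 in any eye, 273 by Spearman's rho, 11 without the eyes with a corrected label and 25 without the 2 eyes most distant from its median. For Tnip1, 1782 as reported, it was 679 with median-of-ratios scaling, 12176 as deposited, 712 by Spearman's rho and 605 without the eyes with a corrected label. In the 39 eyes sharing the commonest prefix both counts were 0 by the permutation test, with 2280 and 2050 genes at an unadjusted p under 0.05. Fewer eyes were used in these last settings, and the cause of the other moves was not tested.

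After removal the count for Gpx3 was 4 with 5 components and 23 by permuting residuals, and that for Tnip1 was 1 as deposited and 62 by permuting residuals, the permutations being chosen after seeing the data. The median levels stayed within 51.1 to 58.7 CPM for Gpx3 and 102 to 110 CPM for Tnip1. No paired analysis was possible because the eyes form 1 group and carry no shared replicate numbers.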
